A study of Mus musculus with 3 samples.

Results

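The 10 genes described here are 9 immediate early genes, Fos, Fosb, Jun, Junb, Jund, Egr1, Atf3, Ier2 and Zfp36, and Srf, the gene of serum response factor. They were taken by symbol from the deposited count table, where they are 10 of 46095 gene symbols, and all 10 were among the 18216 genes with enough counts to be tested. The RNA came from prostate tumors of TRAMP mice aged 37 weeks, a C57BL/6 strain whose prostatic epithelium expresses the viral SV40 oncoprotein, so all groups carry this transgene. The control mice, called TRAMP, were wild type for Phf8, the gene of a histone demethylase, and the Phf8-KO mice were obtained by crossing Phf8 knockout females with TRAMP males. TRAMP gave 1 library and Phf8-KO gave 2, called Phf8-KO1 and Phf8-KO2, each made from RNA pooled from 3 mice. The sources used here do not say which mice or lesions went into each pool or whether any mouse gave RNA to both Phf8-KO pools, so the p-values measure only the spread between these libraries. The comparison asked which transcripts differ between tumors with and without Phf8.

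Immediate early genes are transcribed within minutes of a growth factor, stress or injury signal, without new protein synthesis. MAP kinases activate transcription factors that are already present, among them SRF, which binds the CArG box in many of these genes together with ternary complex factors such as ELK1, or with the actin-regulated cofactors MRTF and myocardin at genes of the cytoskeleton. FOS and JUN family proteins then pair to form the factor AP-1, and proteins such as tristetraprolin, encoded by Zfp36, shorten the life of the transcripts.

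The CArG box is the sequence element through which SRF acts on these genes and on its own gene, and it is shown here in the promoters in which it was found. RefSeq promoter windows of GRCm38.p6, from 250 bases before to 50 bases after the start of the gene, were at hand for 8 of the 10 genes, all but Egr1 and Ier2. Searched on both strands, the CArG box was found in 2 of these 8, against 1.63% of 32851 windows of all genes. The 30 bases printed lie on the minus strand at chr17:46556215-46556244 for Srf, from -82 to -53 relative to the start, and at chr7:28379267-28379296 for Zfp36, from -68 to -39, with CArG boxes in capitals.
Srf: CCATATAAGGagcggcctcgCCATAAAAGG
Zfp36: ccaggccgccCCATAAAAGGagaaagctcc
Srf held 2 CArG boxes and Zfp36 held 1, and the box next to the start in Srf and that in Zfp36 have the same 10 letters. The GC-rich SP1 sequence GGGCGG was found in 6 of the 8 windows (Atf3, Fos, Fosb, Jun, Srf and Zfp36) and in 35.7% of all windows, and in Zfp36 it shared 1 base with the CArG box. The cyclic AMP response element TGACGTCA (1.79% of all windows) and the AP-1 sequence TGANTCA (7.81%) were found in none of the 8. Only exact matches were counted, and the windows end 250 bases before the start. Elements farther upstream or with deviating letters would be missed, so a gene without a match may still carry the element. These are letters in a window, and no binding was measured.

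The libraries held 26747443 to 31876182 counts, and the 10 genes had between 70 and 7694 counts each. Phf8 itself was at 19.4 CPM (counts relative to TMM-scaled library sizes) in TRAMP, 14.98 and 15.9 CPM in the Phf8-KO pools, with a log2 fold change of -0.33 (SE 0.25; -0.27 after the GC offsets described next), and since the sources do not say which part of the gene the allele lacks, this total does not check the labels. Of 7 luminal markers of the prostate all were detected in every library and their summed level was 2730 to 2898 CPM, with Spdef lowest at 0.225 to 0.694 CPM. Marker levels of other cells differed between the libraries. Skeletal muscle markers summed to 1401 CPM in TRAMP, 72.4 in Phf8-KO1 and 10.4 in the other pool, and edgeR called 3 of these 6 lower (0.0384% of all tested genes). Where 3 values follow each other without a name, here and later, they are those of TRAMP, Phf8-KO1 and Phf8-KO2 in this order. Adipocyte markers summed to 632, 18.8 and 30.8 CPM, erythroid markers to 394, 98.4 and 68.0 CPM, macrophage markers to 288, 159 and 68.4 CPM, T cell markers, with Cd2 at 0 throughout, to 17.4, 8.97 and 3.74 CPM, and neuroendocrine markers to 94.4, 41.6 and 22.0 CPM. Smooth muscle markers summed to 685, 5103 and 384 CPM, fibroblast markers to 1725, 1689 and 703 CPM, basal markers to 177, 41.3 and 103 CPM, endothelial markers to 72.4, 47.8 and 89.5 CPM, and seminal vesicle genes to 112, 1386 and 1997 CPM. Single markers did not all follow these sums. Acta1, at 138, 63.4 and 2.51 CPM, made up most of the skeletal muscle sum in Phf8-KO1. The next highest of these markers there, Mylpf, was at 205, 4.24 and 5.86 CPM. Of 6 fibroblast markers, 3 were above and 1 below TRAMP in both pools. Dcn, the largest in TRAMP, was at 1474, 640 and 215 CPM, but Col1a1 at 8.20, 163 and 97.1 CPM. Of 4 basal markers, 1 was above and 1 below, Krt14 at 2.77, 11.8 and 8.90 CPM and Krt15 at 148, 16.2 and 47.1 CPM. The part of these cells in the values of the 10 genes was not tested, and fewer cells of a type and less RNA per cell cannot be told apart in such samples.

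A second feature moved with the comparison. Across 16612 tested genes with a known transcript sequence (91.2%), the median log2 fold change of Phf8-KO over TRAMP ran from -0.49 in the decile lowest in GC content to 0.89 in the highest, while the ratio of Phf8-KO2 to Phf8-KO1 stayed between medians of -0.03 and 0.05. The 10 genes are GC-rich: their longest transcripts had 51.9% (Fos) to 67.1% (Jund) GC, all 10 above the median of 49.6% over all genes, and Junb, Jund, Ier2 and Srf were in the highest decile. With 1 TRAMP library this gradient and the genotype cannot be told apart. For the 10 genes, and for the other named genes with a fold change, the value is therefore also given after offsets that set the median deviation of each of 20 GC bins to the same level in every library, called GC offsets below. The offsets were interpolated between the median GC contents of the bins and stay constant beyond the outermost ones. The highest decile had a median of 59.4% GC. Genes far above it, such as Jund at 67.1% and Srf at 64.4%, may therefore be corrected too little.

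**Figure D1:**
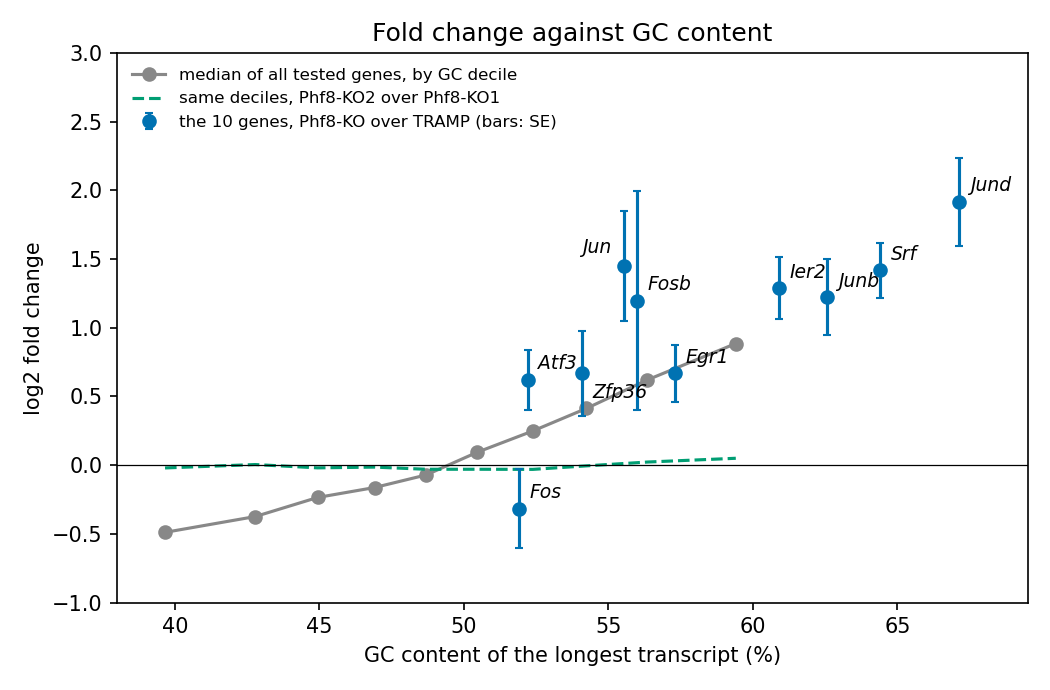
Log2 fold change (vertical axis) against GC content of the longest transcript in percent (horizontal axis). Blue points are the 10 genes, Phf8-KO over TRAMP, with SE bars; grey points are medians of all tested genes in GC deciles and rise from -0.49 to 0.89, and the green dashed line, Phf8-KO2 over Phf8-KO1 in the same deciles, lies near 0. Fos lies below the grey line, and Jund, the gene with the highest GC content, has the highest fold change.

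Taken as a set, the 10 genes stood higher in the Phf8-KO pools, with Fos as the exception. Their summed level was 258 CPM in the TRAMP library, against 524 in Phf8-KO1 and 670 in Phf8-KO2. Of the 10, 9 were above TRAMP in both pools (40.8% of all tested genes were), and Fos was below TRAMP in both (42.8%). The median log2 fold change was 1.21, against 0.01 over all tested genes, and 6 of the 10 had a fitted difference of more than 2-fold higher (17.5% of all) and 0 of more than 2-fold lower (16.1%). Phf8-KO2 was above Phf8-KO1 for 7 of the 10 (49.3% of all).

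**Figure D2:**
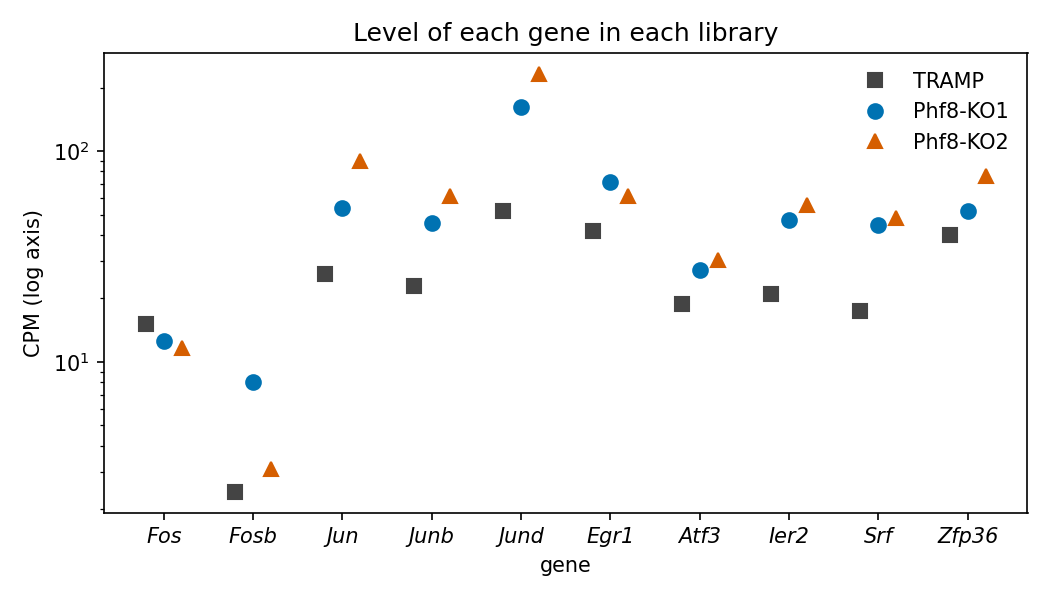
Level of each of the 10 genes in CPM (vertical axis, log scale) in the TRAMP library (squares), Phf8-KO1 (circles) and Phf8-KO2 (triangles). The TRAMP library is the lowest of the 3 for the other 9 genes and the highest for Fos, which was at 15.1 CPM in the TRAMP library, against 12.6 in Phf8-KO1 and 11.6 in Phf8-KO2.

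Calls were made where the adjusted p was below 0.05 and the fold above 2 or below 0.5. The quasi-likelihood test of edgeR, adjusted over all 18216 genes, called 0 of the 10 (0.0% of all genes were called higher and 0.0384% lower), and the lowest adjusted p of a member was 0.10. At an unadjusted p under 0.05, 7 were higher (14.9% of all genes) and 0 lower (12.2%). DESeq2, the tool of the study, called Jun, Junb, Jund, Ier2 and Srf higher (9.42% of the 16269 genes with an adjusted p) and 0 lower (4.59%), and these 5 were also called by edgeR when genes with low counts were kept in the fit (5.55% of 25757 genes higher and 3.32% lower, the latter with 0 members). With GC offsets 0 were called by edgeR (0.0% of 16612 genes higher and 0.0361% lower) or DESeq2 (5.05% of 15051 genes higher and 4.09% lower). Then 1 was higher at an unadjusted p under 0.05 (11.4%) and 0 lower (9.97%), 0 were more than 2-fold higher (13.0%) or lower (15.3%), and the median log2 fold change was 0.38, against 0.02 over all genes. Higher and lower in the following therefore describe levels in the libraries, since no member passed the main edgeR test, that over 18216 genes.

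Jund and Jun had the highest fold changes of the 10. JUN, JUNB and JUND are the AP-1 subunits that pair with each other or with FOS proteins, and JUND is known for a more constant level in resting cells than the other two. Jund (chr8:70698949-70700616 in GRCm38, a single exon) was at 52.2 CPM in the TRAMP library, against 162 in Phf8-KO1 and 232 in Phf8-KO2. Both pools were far above TRAMP, and they also differed from each other, with a Phf8-KO2 to Phf8-KO1 ratio of 1.43 (95% counting interval 1.38 to 1.48). The log2 fold change of Jund was 1.92 (SE 0.32, edgeR adjusted p = 0.10, DESeq2 adjusted p = 5.3e-06), and with GC offsets it was 0.96 (SE 0.27, edgeR adjusted p = 0.19, DESeq2 adjusted p = 0.037). Jund was thus the 1 member at an unadjusted p under 0.05 in edgeR after the GC offsets, at a fold of 1.95. At 67.1% GC it lay far above the 59.4% median of the highest decile, where the offsets may correct too little.

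Jun (chr4:95049034-95052222, a single exon) stood at 26.2 CPM in the TRAMP library, against 53.6 in Phf8-KO1 and 89.9 in Phf8-KO2. The pools did not overlap with TRAMP but were 1.68-fold apart (95% counting interval 1.58 to 1.79), the widest gap among the 5 members called by DESeq2. Its log2 fold change was 1.45 (SE 0.40, edgeR adjusted p = 0.14, DESeq2 adjusted p = 0.011), and 0.98 (SE 0.39) with GC offsets, the highest of the 10 after that correction. The antisense gene Junos shares exon sequence with Jun on the opposite strand and ran the other way, at 14.8 CPM in the TRAMP library, against 7.32 in Phf8-KO1 and 4.74 in Phf8-KO2. The strand setting of the counting is not given in the sources used here, so reads of the pair may not be told apart. The same holds for Jund and Zfp36, whose exons overlap those of predicted genes on the opposite strand. Unlike Junos, these predicted genes have no values in the deposited counts, so their levels cannot be given.

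Junb (chr8:84974484-84978718), a subunit often set against JUN in growth control, was at 22.9 CPM in the TRAMP library, against 45.6 in Phf8-KO1 and 61.4 in Phf8-KO2. Both pools were above TRAMP, and Phf8-KO2 was 1.35-fold above Phf8-KO1 (95% counting interval 1.25 to 1.45). Its log2 fold change of 1.22 (SE 0.28, edgeR adjusted p = 0.12, DESeq2 adjusted p = 0.014) was 0.27 (SE 0.24) with GC offsets. Junb overlaps exons of Prdx2 on the opposite strand, a gene of higher level in all libraries that was at 265 CPM in the TRAMP library, against 248 in Phf8-KO1 and 196 in Phf8-KO2.

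The FOS genes among the 10 had fewer counts than the JUN genes and other orders of the libraries. FOS is the classic immediate early protein and needs a JUN partner to bind DNA. Fos (chr12:85473890-85477273, 4 exons) was the only one of the 10 below TRAMP in both pools, at 15.1 CPM in the TRAMP library, against 12.6 in Phf8-KO1 and 11.6 in Phf8-KO2. The pools lay close together, and their ratio of 0.922 had a counting interval that includes 1 (0.794 to 1.07), while both differed from TRAMP beyond counting error, by ratios of 0.835 (0.722 to 0.965) and 0.770 (0.669 to 0.885). Across libraries the difference did not pass the test, with a log2 fold change of -0.32 (SE 0.29, edgeR adjusted p = 0.51, DESeq2 adjusted p = 0.73), and it was -0.47 (SE 0.29) with GC offsets. The summed markers of all listed cell types except smooth muscle, endothelium and seminal vesicle were also highest in TRAMP, those of neuroendocrine cells included. Their part in the level of Fos was not tested.

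Fosb (chr7:19302696-19310051), the second FOS family member, had the lowest counts, 70 in TRAMP, 214 in Phf8-KO1 and 103 in Phf8-KO2. Its level was 2.42 CPM in the TRAMP library, against 8.03 in Phf8-KO1 and 3.11 in Phf8-KO2. Phf8-KO1 alone stood apart, 3.32-fold above TRAMP (95% counting interval 2.52 to 4.41), whereas Phf8-KO2 was 1.28-fold above it with an interval that includes 1 (0.938 to 1.76). Fosb was the only one of the 10 with pools more than 2-fold apart, as 19.8% of all tested genes were, and its log2 fold change of 1.20 had an SE of 0.80 (edgeR adjusted p = 0.39). With GC offsets it was 0.68 (SE 0.78). The smooth muscle markers followed the same order of pools, with all 8 higher in Phf8-KO1 than in TRAMP and 6 of 8 lower in Phf8-KO2, and their part in the Fosb value was not tested.

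Since genes of different length take different numbers of reads, levels were compared between genes per kilobase of exon. Jund had the highest level per length of the 10 in every library, at 31.3 CPM per kb in TRAMP, 97.4 CPM per kb in Phf8-KO1 and 139 CPM per kb in Phf8-KO2, and Ier2 was next in every library, at 13.8, 30.8 and 36.5 CPM per kb. The length of Jund matters here, since over its longer RefSeq span it was at 18.1, 56.4 and 80.7 CPM per kb, still the highest of the 10. Fosb was lowest in every library, at 0.388, 1.29 and 0.498 CPM per kb, and its mean in the pools of 0.892 was 1.47 with the length of the longest transcript. In the Phf8-KO pools the order between them was Junb at 23.2 ± 4.85 (SD, n = 2), Jun at 22.5 ± 8.06, Zfp36 at 18.4 ± 4.90, Srf at 16.04 ± 0.874, Egr1 at 14.8 ± 1.58, Atf3 at 13.4 ± 1.04 and Fos at 5.14 ± 0.296 CPM per kb. Junb, Jun and Zfp36 overlapped with their neighbours in that order, as did Srf with Egr1 and Egr1 with Atf3, whereas Jund, Ier2, Fos and Fosb were each separated from their neighbours in both pools. In TRAMP the order below Ier2 was Zfp36 (11.6), Junb (9.97), Egr1 (9.32), Atf3 (8.69), Jun (8.23), Fos (6.40) and Srf (6.01 CPM per kb), so that Srf was next to last there and sixth in both pools.

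Summed per length, the JUN family (Jun, Junb and Jund) was at 49.5 CPM per kb in TRAMP, 134 in Phf8-KO1 and 194 in Phf8-KO2. The FOS family, completed by Fosl1 and Fosl2, was at 11.4, 15.4 and 15.5 CPM per kb. The ratio of the families was 4.35 in TRAMP, 8.68 in Phf8-KO1 and 12.5 in Phf8-KO2 (3.58, 6.64 and 9.50 with the length of the longest transcript), and Jund made up 63.2%, 72.7% and 71.7% of the JUN sum. With Jund over its RefSeq span the ratio was 3.19, 6.03 and 8.76, and the share of Jund 49.9%, 60.6% and 59.5%. In the FOS family the largest part in the pools came from Fosl2, at 4.58 CPM per kb in TRAMP, 8.50 in Phf8-KO1 and 10.03 in Phf8-KO2, above Fos at 6.40, 5.35 and 4.93 CPM per kb. JUN genes are richer in GC than Fos, and with GC offsets the log2 fold changes were 0.98 for Jun, 0.27 for Junb, 0.96 for Jund and -0.47 for Fos.

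**Figure D3:**
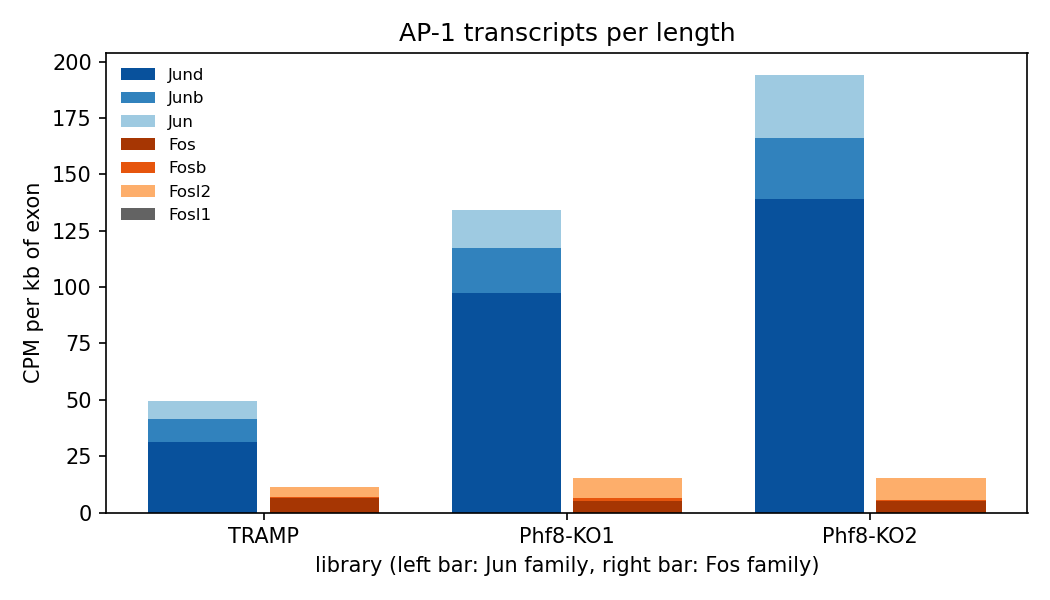
Stacked bars of CPM per kb of exon (vertical axis, from 0) for the JUN family (left bar, blue) and the FOS family (right bar, brown, orange and grey) in each library (horizontal axis). The JUN bar is 49.5 in TRAMP, 134 in Phf8-KO1 and 194 in Phf8-KO2 and consists mostly of Jund, and the FOS bar is 11.4, 15.4 and 15.5.

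Of 14 other genes of the AP-1 family, which include further dimer partners of the ATF, BATF and MAF groups, 7 were above and 1 below TRAMP in both pools (40.8% and 42.8% of all tested genes were). The median log2 fold change was 0.69 (0.43 with GC offsets). EdgeR called 0, and DESeq2 called 2 higher (9.42% of all genes), among them Fosl2, and 0 with GC offsets (5.05%). Fosl2 was at 44.3 CPM in the TRAMP library, against 82.3 in Phf8-KO1 and 97.1 in Phf8-KO2 (log2 fold change 1.02, SE 0.21; 0.72 with GC offsets). Batf, a lymphoid partner of JUN proteins, was the 1 lower gene, at 1.59 CPM in the TRAMP library, against 0.113 in Phf8-KO1 and 0.181 in Phf8-KO2, or 46, 3 and 6 counts (log2 fold change -3.39, SE 0.89; -4.00 with GC offsets), and T cell markers were also lower in both pools. The rest were less clear, as Maff, Mafg, Atf2 and Atf4 each had 1 pool on either side of TRAMP.

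ATF3, a stress-induced factor of the ATF and CREB family that can pair with JUN proteins, had the pools nearest to each other among the AP-1 genes of the 10 that lay above TRAMP. Atf3 (chr1:191170296-191218039, 5 exons at most) was at 18.7 CPM in the TRAMP library, against 27.2 in Phf8-KO1 and 30.4 in Phf8-KO2. The pools were 1.12-fold apart (95% counting interval 1.01 to 1.23) and both above TRAMP. Its log2 fold change was 0.62 (SE 0.22, edgeR adjusted p = 0.18, DESeq2 adjusted p = 0.27) and 0.43 (SE 0.23) with GC offsets.

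Egr1, a zinc finger factor and SRF target, was at 41.8 CPM in the TRAMP library, against 71.4 in Phf8-KO1 and 61.4 in Phf8-KO2. It was above TRAMP in both pools and, like Fosb and Fos, higher in Phf8-KO1 than in Phf8-KO2 (ratio 0.860, 95% counting interval 0.807 to 0.916). The log2 fold change was 0.67 (SE 0.21, edgeR adjusted p = 0.16, DESeq2 adjusted p = 0.14), and with GC offsets it was -0.0047 (SE 0.21). The other EGR genes were lower in the pools or near 0. Egr2 was at 2.46 CPM in the TRAMP library, against 2.25 in Phf8-KO1 and 0.875 in Phf8-KO2, Egr3 at 1.77, 1.54 and 0.573 CPM, and Egr4 had 1 count in Phf8-KO2 and none elsewhere. The EGR corepressor genes Nab1, at 65.2, 82.9 and 78.2 CPM, and Nab2, at 39.1, 57.9 and 73.2 CPM, lay above TRAMP in both pools, and none of these passed either tool.

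IER2 is a nuclear protein induced by growth factors. Ier2 (chr8:84661331-84662852, a single exon) was at 20.97 CPM in the TRAMP library, against 46.9 in Phf8-KO1 and 55.6 in Phf8-KO2. Both pools were more than 2-fold above TRAMP and 1.19-fold apart (95% counting interval 1.10 to 1.27). The log2 fold change of 1.29 (SE 0.22, edgeR adjusted p = 0.10, DESeq2 adjusted p = 0.0036) was 0.34 (SE 0.20) with GC offsets.

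Zfp36 encodes tristetraprolin, which binds AU-rich elements of short-lived transcripts and is itself an immediate early gene. It (chr7:28376784-28380253) was at 40.2 CPM in the TRAMP library, against 51.8 in Phf8-KO1 and 75.8 in Phf8-KO2. This span, from GENCODE, includes the bases printed above, because the RefSeq start used for the promoter window lies farther downstream. Phf8-KO1 was nearer to TRAMP than to Phf8-KO2, and the pools were 1.46-fold apart (95% counting interval 1.37 to 1.56), so the log2 fold change of 0.67 had an SE of 0.31 (edgeR adjusted p = 0.26, DESeq2 adjusted p = 0.25). With GC offsets it was 0.30 (SE 0.31). Its relatives Zfp36l2, at 19.1 CPM in TRAMP and 42.6 and 42.1 CPM in the pools, and Zfp36l1, at 116 CPM in TRAMP and 186 and 227 CPM in the pools, were also above TRAMP, with log2 fold changes of 1.15 (SE 0.20) and 0.84 (SE 0.23) and of 0.74 and 0.92 with GC offsets. DESeq2 called Zfp36l2 higher and edgeR called neither, and with GC offsets neither was called by DESeq2 (adjusted p = 0.17 and fold 1.67 for Zfp36l2).

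Srf had the smallest SE of the 10. SRF is the MADS-box factor that binds the CArG box, and its gene is one of its own targets, with the paired boxes shown above. Srf (chr17:46548329-46556175, 7 exons) was at 17.4 CPM in the TRAMP library, against 44.6 in Phf8-KO1 and 48.2 in Phf8-KO2. The pools lay close together, 1.08-fold apart (95% counting interval 1.0013 to 1.17), at 2.57-fold (2.31 to 2.86) and 2.77-fold (2.51 to 3.07) the TRAMP level. The log2 fold change was 1.42 (SE 0.20, edgeR adjusted p = 0.10, DESeq2 adjusted p = 0.00081). With GC offsets it was 0.47 (SE 0.19, unadjusted p = 0.074, edgeR adjusted p = 0.27, DESeq2 adjusted p = 0.46).

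**Figure D4:**
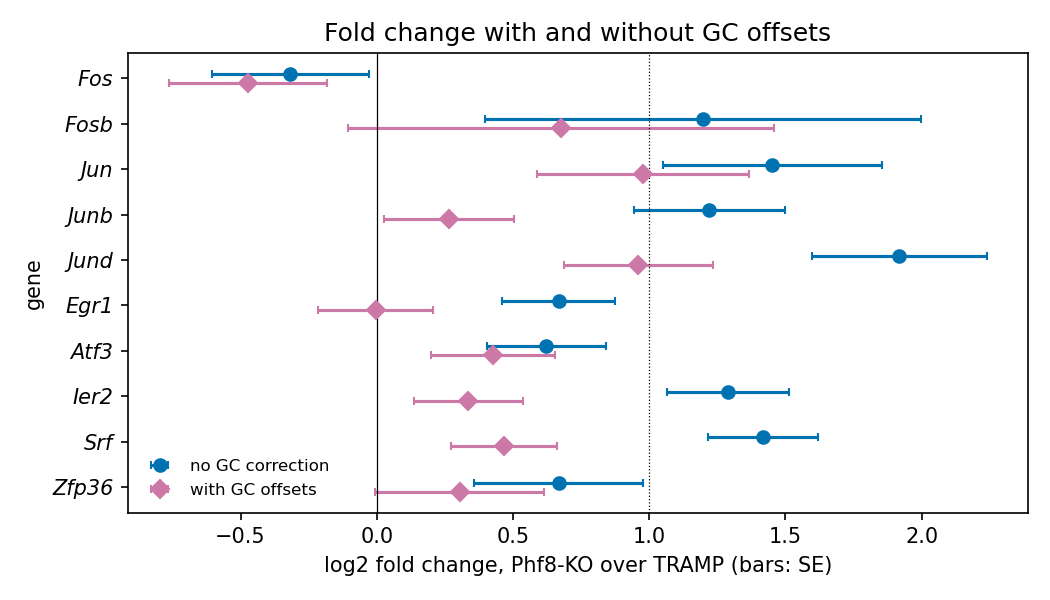
Log2 fold change of Phf8-KO over TRAMP (horizontal axis, bars are SE) for each of the 10 genes (vertical axis), without a GC correction (circles) and with GC offsets (diamonds); the dotted line marks 2-fold. Without the correction 6 genes lie beyond 2-fold, and with it none does, while Fos lies below 0 both ways.

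The SRF cofactors were above TRAMP in both pools in 6 of 6 cases (40.8% of all tested genes were). Their median log2 fold change was 0.82 (0.71 with GC offsets). EdgeR called 0, and DESeq2 called 2 higher (9.42% of all genes), Mrtfa and Myocd, and with GC offsets only Myocd (5.05% of all genes). Mrtfa, listed as Mkl1, was at 16.4 CPM in the TRAMP library, against 34.9 in Phf8-KO1 and 38.7 in Phf8-KO2 (log2 fold change 1.16, SE 0.21, DESeq2 adjusted p = 0.013), and 0.41 (SE 0.21) with GC offsets. Myocd, the myocardin gene of smooth and cardiac muscle, was at 1.0037, 19.9 and 3.71 CPM (log2 fold change 3.55, SE 1.33, DESeq2 adjusted p = 0.0058; 3.54 with GC offsets), with Phf8-KO1 well above Phf8-KO2 as for the smooth muscle markers. Mrtfb, listed as Mkl2, was at 80.6, 92.5 and 95.5 CPM, and the ternary complex factor genes had log2 fold changes of 1.01 (Elk1, SE 0.31), 0.60 (Elk3, SE 0.28) and 0.64 (Elk4, SE 0.37), or 0.85, 0.68 and 0.73 with GC offsets. Thus Srf and Mrtfa were alike in both pools, whereas Myocd was not.

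Among 22 genes of the actin cytoskeleton listed as known targets of SRF, none of which stands in the marker lists, 15 were above and 3 below TRAMP in both pools (40.8% and 42.8% of all tested genes were). The median log2 fold change was 1.10 (0.79 with GC offsets). Of the 22, edgeR called 0, and DESeq2 called 8 higher and 1 lower (9.42% and 4.59% of all genes). With GC offsets DESeq2 called 6 higher and 1 lower (5.05% and 4.09%). The lower gene was Filip1l without the offsets (DESeq2 adjusted p = 0.030, and 0.16 with them). With them it was Coro1a (DESeq2 adjusted p = 0.048, and 0.20 without them). Tpm4 was called higher only with the offsets. The 4 with the smallest p were Zyx, Myh9, Actb and Tagln2, genes of focal adhesions, non-muscle myosin, beta actin and an actin-bundling protein. Actb was at 383 CPM in the TRAMP library, against 1394 in Phf8-KO1 and 1217 in Phf8-KO2 (log2 fold change 1.77, SE 0.34; 1.64 with GC offsets). Myh9 was at 186, 606 and 735 CPM (1.85, SE 0.30), Tagln2 at 120, 396 and 289 CPM (1.52, SE 0.31), and Zyx at 21.01, 54.9 and 51.4 CPM (1.34, SE 0.20). Their GC-offset values were 1.20, 1.02 and 0.73. Zyx was no longer called by DESeq2 with GC offsets (adjusted p = 0.15). Other genes of the 22 differed between the pools: Tpm1, Tpm2, Myl9 and Fhl2 were above TRAMP in Phf8-KO1 and below it in Phf8-KO2, with log2 ratios of 2.16 and -1.57 for Tpm2 and of 2.72 and -0.38 for Myl9, and Cald1 was at 3.15 and 0.06. The 8 smooth muscle markers had a median log2 ratio to TRAMP of 3.04 in Phf8-KO1 and of -0.65 in Phf8-KO2, and Srf had ratios of 1.36 and 1.47. The part of smooth muscle content in these values was not tested.

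**Figure D5:**
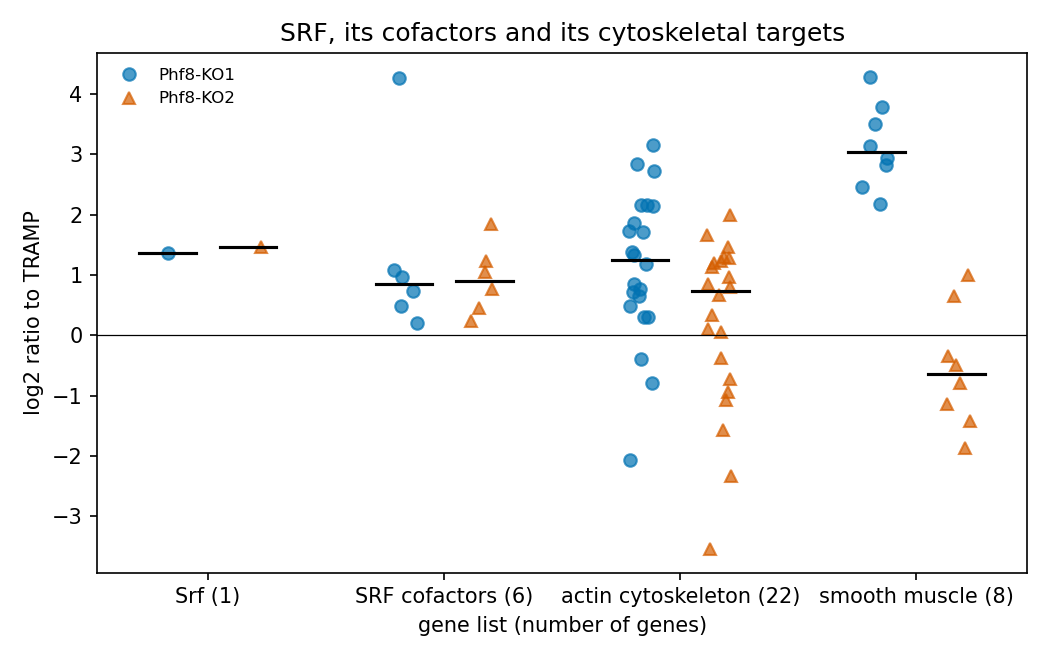
Log2 ratio to TRAMP (vertical axis) in Phf8-KO1 (circles) and Phf8-KO2 (triangles) for Srf, 6 SRF cofactors, 22 genes of the actin cytoskeleton and 8 smooth muscle markers (horizontal axis), with black lines at the medians. Srf is near 1.4 in both pools, and the smooth muscle markers lie at a median of 3.04 in Phf8-KO1 and -0.65 in Phf8-KO2.

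Of 40 other immediate early genes, 27 were above and 3 below TRAMP in both pools (40.8% and 42.8% of all tested genes were). The median log2 fold change was 0.80 (0.47 with GC offsets). EdgeR called 0 of them, and DESeq2 called 5 higher and 0 lower (9.42% and 4.59% of all genes). With GC offsets DESeq2 called 3 higher (5.05%), Id1, Bhlhe40 and Plk2, of which Plk2 was called only with them. Id1, an inhibitor of helix-loop-helix factors, was at 22.0 CPM in the TRAMP library, against 140 in Phf8-KO1 and 166 in Phf8-KO2 (log2 fold change 2.80, SE 0.24; 2.40 with GC offsets). The helix-loop-helix repressor gene Bhlhe40 was at 9.48, 33.4 and 72.4 CPM (2.48, SE 0.60; 2.54 with GC offsets). Rhob, a small GTPase gene, was at 22.4, 51.8 and 56.4 CPM (1.27, SE 0.20; 0.73 with GC offsets, where its DESeq2 adjusted p went from 0.0021 to 0.15), and Plk2, a polo-like kinase gene, at 32.9, 59.7 and 69.3 CPM (0.97, SE 0.21; 1.08 with GC offsets).

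Feedback inhibitors of the MAP kinase pathway, 13 genes of dual-specificity phosphatases, Sprouty and Spred proteins, were above TRAMP in both pools in 9 cases and below in 1 (40.8% and 42.8% of all tested genes). Their median log2 fold change was 0.87 (0.70 with GC offsets). EdgeR called 0 and DESeq2 called 2 higher (9.42% of all genes). These were Spred2 at 16.9 CPM in the TRAMP library, against 35.7 in Phf8-KO1 and 45.5 in Phf8-KO2, and Spry1 at 19.6, 35.8 and 50.9 CPM. The log2 fold change of Spred2 was 1.26 (SE 0.26) and that of Spry1 was 1.14 (SE 0.31), or 1.13 and 0.52 with GC offsets, where DESeq2 called Spred2 alone (5.05% of all genes).

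By the similarity of their log2 ratios to TRAMP in the pools, among 10181 genes with a mean of at least 10 CPM, genes most like Fos included Gmpr2 and Dnajc18, at distances of 0.0089 and 0.013. Those most like Srf were Lypla2, Tgm2 and Numa1, at distances of 0.011, 0.031 and 0.031 on the log2 scale. The likeness rests on 2 ratios for each gene, which share the TRAMP library, and is a description.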

How the data were processed

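Per the study's methods, the authors extracted RNA with Trizol, and after read filtering used HISAT2 with the GRCm38 genome for alignment and HTSeq for counting. The deposited values are raw counts, and tool versions, annotation release and strand setting are not given in the sources used here. In R 4.3.3, the counts were tested with edgeR 4.0.16 (TMM scaling, filterByExpr by group, quasi-likelihood test, Benjamini-Hochberg adjustment over 18216 genes), with calls where the adjusted p was below 0.05 and the fold above 2 or below 0.5. The study's methods used DESeq2 with these thresholds, and DESeq2 1.42.0 and limma 3.58.1 (voom) were run as alternatives. The SE is the size of the log2 fold change over the root of F. With 1 residual degree of freedom only the Phf8-KO pools inform the spread, which is taken to hold for TRAMP too. TMM factors were 0.965 to 1.04, and 3 counts correspond to 0.0905 to 0.113 CPM. Counting intervals (95%, exact binomial) cover counting error only.

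Coordinates, union exon lengths and GC content are from GENCODE M21 (GRCm38), and promoter windows from RefSeq. The steps were tested on simulated data. The members, the lists (other AP-1 and EGR genes, tristetraprolin relatives, SRF cofactors and targets, other immediate early genes, feedback inhibitors, MAP kinases, heat shock genes and cell type markers) and the tests were chosen with earlier results of these data known. Named genes are the members, up to 4 genes with the smallest p in each list, all SRF cofactors, the 3 genes most like Fos and Srf, and Phf8. Not every gene under this rule is reported here. Junos and Prdx2 were added because they overlap members. Alternatives were scaling by RLE, by upper quartile or by library size alone, no filter, a mean CPM of at least 1, edgeR without its legacy setting, leaving out each Phf8-KO pool, other lengths and, chosen after seeing the data, the GC offsets.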

Additional observations from a re-analysis of the deposited data

How the results depend on the processing

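No paired analysis was possible because TRAMP is a single library. Without Phf8-KO1 or Phf8-KO2, 1 library a group is left, which gives values but no test. The median log2 fold change of the 10 genes, 1.21, was 1.01 to 1.16 without 1 pool, 1.10 with limma-voom, 1.06 when scaled by upper quartile (all genes then had a median of -0.14) and 0.38 with GC offsets in edgeR and DESeq2. Members called higher were 0 in edgeR, 5 in DESeq2 and 5 with no filter on low counts. With GC offsets the 7 members higher at an unadjusted p under 0.05 in edgeR became 1, and the 6 in DESeq2 became 2. The 6 over 2-fold became 0 in both. Egr1, at 0.67, turned to -0.0047 in edgeR and -0.0046 in DESeq2 with GC offsets. Over all genes, 7 were called lower and 0 higher by edgeR, 747 and 1533 by DESeq2, 19 and 1 with library size only, 856 and 1430 with no filter, and 616 and 760 by DESeq2 with GC offsets. Limma-voom and a mean CPM of at least 1 gave 0 lower. Under the tested alternatives without GC offsets, 70 of 80 fold changes of single members kept direction and call and 10 were newly called. The 20 values without 1 pool kept their direction. Over those alternatives the adjusted p of Jund ran from 5.3e-06 to 0.11 and that of Srf from 0.00081 to 0.11. Per length with the longest transcript, the Phf8-KO means of Junb and Srf were 29.6 and 17.7 CPM per kb, that of Fosb was 1.47, and over its RefSeq span Jund was at 68.6. Counts of 70 to 214 limit Fosb. The causes were not tested.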

Other observations

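Of 16 MAP kinase genes upstream of the immediate early genes, 6 were above and 6 below TRAMP in both pools (40.8% and 42.8% of all tested genes were). The median log2 fold change was -0.01 (0.18 with GC offsets). EdgeR called 0 of them and DESeq2 called 3 higher (9.42% of all genes), 1 with GC offsets (5.05%). These were Mapk3, the gene of ERK1, at 116 CPM in the TRAMP library, against 273 in Phf8-KO1 and 351 in Phf8-KO2 (log2 fold change 1.43, SE 0.28; 0.74 with GC offsets), Map2k2, the gene of MEK2, at 31.2, 78.7 and 83.9 CPM (1.38, SE 0.19; 0.47 with GC offsets), and Rps6ka1, the gene of the kinase RSK1, at 26.7, 82.9 and 112 CPM (1.87, SE 0.29; 1.19 with GC offsets). All 3 have a lower value with the offsets, as the 10 genes do. The 1 call left with the offsets was that of Rps6ka1. Map2k7, a kinase of the JNK branch, was at 50.5, 79.7 and 85.7 CPM (0.71, SE 0.19; 0.19 with GC offsets).

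Among heat shock genes, many of which are induced by stress as Atf3 is, 5 of 8 tested were below TRAMP in both pools (42.8% of all genes were) and 2 above (40.8%). At an unadjusted p under 0.05 in edgeR, 2 were lower and 2 higher (12.2% and 14.9% of all genes). The median log2 fold change was -0.36 (-0.17 with GC offsets). Their summed level, made up mostly of Hspa8 and Hsp90aa1, was 2208 CPM in the TRAMP library, against 1441 in Phf8-KO1 and 1229 in Phf8-KO2. EdgeR called 0. DESeq2 called Hsp90aa1 lower (4.59% of all genes) and Hspb1 higher (9.42%), and 0 with GC offsets (4.09% lower and 5.05% higher). Hsp90aa1, a cytosolic chaperone gene, was at 546 CPM in TRAMP and 267 and 271 CPM in the pools (log2 fold change -1.02, SE 0.22; -0.70 with GC offsets). Hspa8, the constitutive HSC70 gene, was at 1206, 730 and 577 CPM (-0.88, SE 0.31; -0.67 with GC offsets), Hspb1, a small heat shock protein gene, at 11.4, 41.4 and 21.5 CPM (1.46, SE 0.50; 0.53 with GC offsets), and Hsf1, the heat shock factor gene, at 18.1, 29.9 and 31.4 CPM (0.76, SE 0.21; 0.43 with GC offsets).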
